A study of Homo sapiens with 12 samples.

Results

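CAL62 is a cell line from an anaplastic thyroid carcinoma. The study grew isogenic CAL62 lines in which doxycycline switches on either the mature miRNA hsa-miR-139-5p or a scrambled, non-targeting control, and sampled each line without doxycycline or after 96 h in 1 µg/ml of it. The polyA RNA of 3 libraries in each of these 4 groups was measured, and the column of each library carries a tag: C, NE or TR. The 4 libraries tagged NE, 1 from each group, are described here against the other 8 of the 12 libraries, tagged C or TR. They were chosen by their tag and not by a measured value.

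All 4 groups carry a doxycycline-inducible construct and grew in RPMI-1640 medium with 10% fetal bovine serum. The groups are the untreated miR-139 line, the treated miR-139 line, the untreated scrambled line and the treated scrambled line, and NE values below are always given in that order. The labels do not say what NE, C or TR stand for, nor whether the libraries of a tag share a culture, a day or a preparation. The 4 NE libraries therefore share whatever the tag stands for, and that cannot be told apart from the NE difference itself. The p-values below measure only how far the NE libraries of 4 groups stand from C and TR against the spread among these 12 libraries, all of a single cell line.

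The culture state of a tumour line shows in a few well-known gene programmes. Dividing cells make E2F-driven replication genes before S phase and a later set of genes for mitosis. Adherent cells lay down a matrix of fibronectin and collagens that integrins bind. Amino acid shortage switches on ATF4 targets, glucose raises TXNIP, and HSF1 drives chaperones when proteins misfold. Mitochondria hold their own small genome, whose polyadenylated mRNAs code for a core of the respiratory chain, while the nucleus codes for the remaining subunits and for the mitochondrial ribosome.

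Values are FPKM, counted fragments divided by the length of the transcript and by how many fragments of that library mapped. Summed FPKM here covers the genes analysed, which leave out chromosomes 3 to 9, and shares below are of that sum and not of the whole library. Summed FPKM was 563165 to 664359 in the NE libraries and 534216 to 598736 in the others, and 9518 to 9633 genes against 9803 to 9884 reached 1 FPKM. Low values step in whole fragments, which gives each library's depth relative to the untreated miR-139 C library: 0.944 to 1.09 in NE, 1 to 1.16 in C and 0.720 to 1.497 in TR. The NE libraries thus lay within the range of depth of the others. Absolute depth is unknown. The cells carried the thyroid transcription factors PAX8 (113, 142, 116 and 115 FPKM in NE, 55.99 to 133 (median 101) in the others) and HHEX, while NKX2-1 was listed at 0 in all 12. Of the other cell types, summed markers of leukocytes were 8.27 to 11.6 FPKM in NE and 5.71 to 12.8 elsewhere, with 7 of 14 at 0 in every library, and CD68 made up most of the sum. Thyroid C cell markers summed to 0.901 to 1.81 and 1.09 to 2.81 FPKM, with 3 of 9 at 0. Endothelial markers summed to 2.45 to 3.83 and 1.59 to 3.40 FPKM (1 of 7 at 0) and keratinocyte markers, chiefly KRT10, to 17.0 to 22.4 and 11.2 to 17.1 FPKM (5 of 10 at 0). Fibroblast markers summed to 153.7 to 180.4 and 112.5 to 235.2 FPKM (2 of 8 at 0), nearly all from PDPN and COL1A1. Whether other cells add to any NE difference was not tested.

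The NE libraries differed from C and TR in a large part of the transcriptome. Of 9778 genes with a mean of at least 1 FPKM, 2239 (22.9%) were higher and 1874 (19.2%) lower in NE (limma on log2(FPKM + 1) with group as a block, Benjamini-Hochberg adjusted p under 0.05), and these shares are the background for every list below. In all 4 groups the NE library lay above both others for 1901 genes (19.4%) and below both for 1540 (15.7%). All 4 NE libraries lay above the highest of the other 8 for 1371 genes (14%) and below the lowest for 980 (10%). Taken against each tag alone, 4777 genes (48.9%) differed between NE and C and 4442 (45.4%) between NE and TR, whereas 1628 (16.6%) differed between C and TR. Most differences were below a doubling: 82 of the called genes passed an absolute log2 difference of 1, of which 70 were lower and 12 higher in NE. Of the total variation of the tested genes (sum of squares on the log2 scale), 44.5% lay between NE and the rest, 13.1% between the 4 groups and 18.03% between C and TR. Without the NE library of the treated scrambled line the counts fell to 1447 higher and 1187 lower.

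The NE difference was in part shared between the lines. Across 9778 genes its values correlated at r = 0.69 between the groups of the miR-139 line, 0.86 between those of the scrambled line and 0.54 to 0.76 across lines, a description in which each group supplied its own 3 libraries. Its spread over genes was larger in the scrambled line, with SDs of 0.455 and 0.504 on the log2 scale, than in the miR-139 line, with 0.361 and 0.364. The test of the difference between the lines called 0 of 9778 genes (0%), though 1695 (17.3%) had an unadjusted p under 0.05, with a smallest adjusted p of 0.235. The test of the difference between doxycycline-treated and untreated cells also called 0 genes (0%), and 84 (0.859%) had an unadjusted p under 0.05. With every gene of the table tested, low ones included, these counts were 1 and 3, all genes with means of at most 0.102 FPKM (RN7SL274P for the line, RP11-807G9.2, RP3-426I6.5 and SNORA80B for doxycycline, named after their values were seen).

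**Figure D1:**
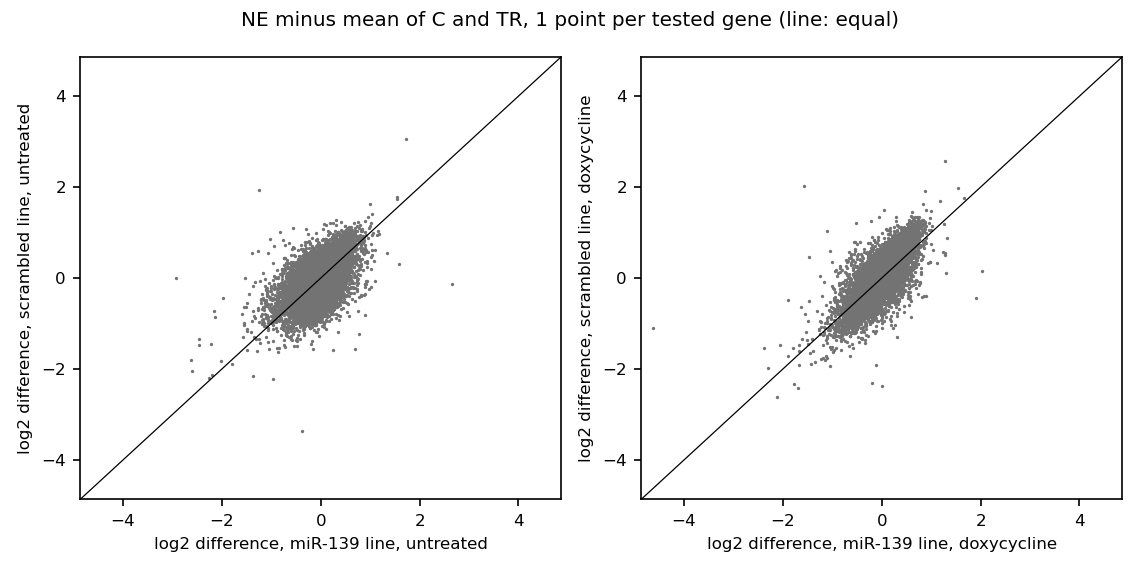
Each point is 1 of the 9778 tested genes, with the NE library minus the mean of the C and TR libraries on the log2(FPKM + 1) scale in the miR-139 line (x axis) and in the scrambled line (y axis), untreated (left) and with doxycycline (right). The clouds run along the line of equal values, and their spread is wider on the y axis (SD 0.455 and 0.504) than on the x axis (0.361 and 0.364).

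Length and base composition moved with the NE difference. In the shortest quartile of transcripts 36.4% of genes were higher and 9.46% lower in NE, and in the longest quartile 11.8% were higher and 30.4% lower. In the quartile with the lowest GC content 8.49% were higher and 38.9% lower, against 33.9% and 10.0% in the quartile with the highest. Over the 8621 genes with a matched transcript, Spearman's rho with the NE difference was −0.29 for length and 0.35 for GC, as a description across genes. After a smooth trend on both was taken out of each library, 2048 genes were higher and 1649 lower, and 2928 of the 3779 called genes with a matched transcript kept their call. What part of the NE difference these trends carry was not tested, so lists whose larger count of calls they move by over 1.5 times are given with both values.

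**Figure D2:**
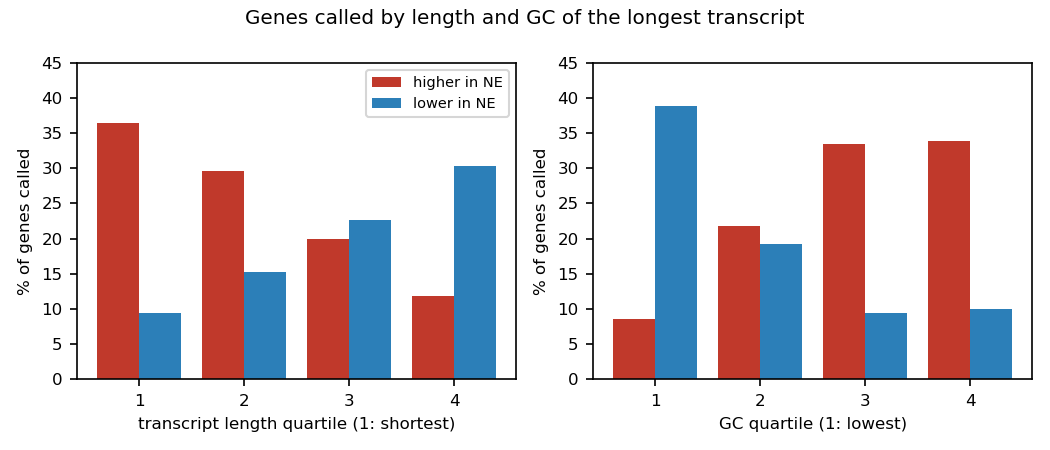
Bars give the percentage of genes called higher (red) or lower (blue) in NE in each quartile of genes by length (left) and GC content (right) of the longest GENCODE transcript. Short and GC-rich transcripts were more often higher in NE, with 36.4% in the shortest and 11.8% in the longest quartile.

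FPKM is relative to the mapped fragments of a library, and the NE libraries gave less of their summed FPKM to the mitochondrial genome. The sum itself was not fixed (563165 to 664359 in NE, 534216 to 598736 elsewhere). Scaling to a common total therefore also evens out the sums, and what part of a shift comes from the mitochondrial share was not tested. When each library was scaled to the same total without mitochondrial genes, the median over all genes moved from 0.02 to −0.13, with 1124 genes higher and 2826 lower, so the higher genes were 28.5% of the called genes in place of 54.4%. Upper quartile scaling gave 1611 higher and 2506 lower (39.1%). Lists whose balance of higher and lower calls turned under either scaling are given with both counts below. Measured from the median of all genes, the largest shift of a list median under either was 0.06, over the 37 lists with at least 5 tested genes. Quantile normalization moved some lists further. Measured the same way, proteasome went from 0.42 to 0.18, nuclear oxidative phosphorylation from 0.36 to 0.15 and cytosolic ribosomal proteins from 0.25 to 0.07. DNA replication (0.52 to 0.45) and structural matrix (−0.36 to −0.38) moved less.

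Among the 37 lists with at least 5 tested genes, replication, heat shock, mitochondrial ribosome, proteasome, mitochondrial import and nuclear respiratory chain genes led the upper end, and mitochondrially encoded mRNAs, nuclear noncoding RNAs, integrins, structural matrix and interferon-stimulated genes the lower. The median over all tested genes was 0.02.

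**Figure D3:**
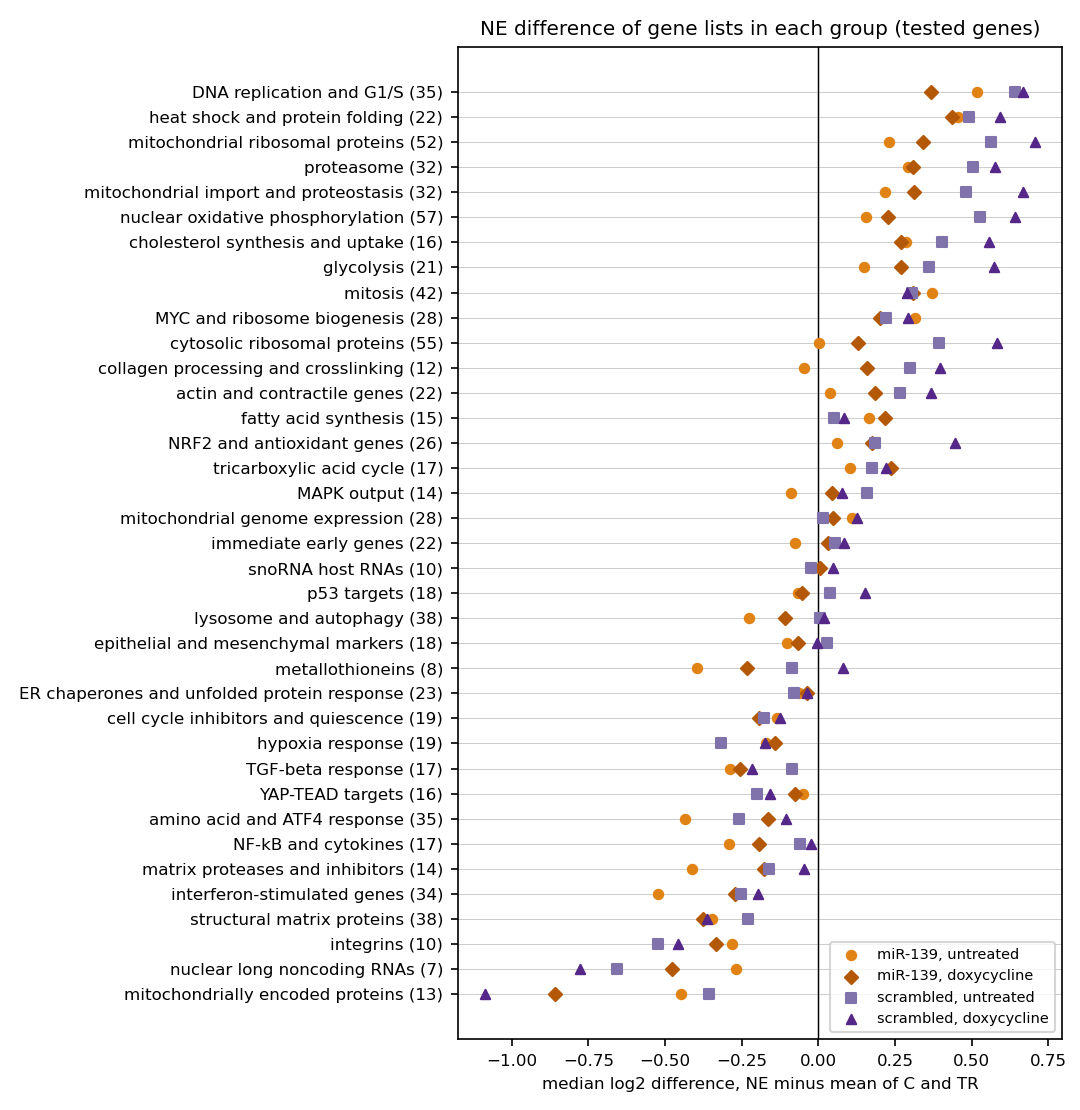
Median over the tested genes of each list (number in parentheses) of the log2 difference between the NE library and the mean of C and TR, in each of the 4 groups. DNA replication stands at 0.37 to 0.67 and mitochondrially encoded proteins at −1.09 to −0.36, and both kept a single sign in the 4 groups.

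DNA replication genes were higher in NE. Of 35 tested, 27 were higher and 0 lower, with a median of 0.54 and group medians from 0.37 to 0.67. GINS2, a subunit of the replicative helicase complex, was 36.4, 38.3, 39.8 and 38.7 FPKM in the NE libraries and 13.7 to 20.1 (median 17.8) in the others, so that the ranges lay far apart. Its log2 difference was 1.10 (SE 0.11, adjusted p = 4.23e-05). MCM5, a subunit of the helicase ring, was 94.6, 109, 110.1 and 133 FPKM against 51.9 to 71.6 (median 56.3, log2 difference 0.93). TK1, which salvages thymidine, was 119, 122, 159 and 173 FPKM against 69.3 to 86.9 (median 74.6, log2 difference 0.88), and its values were higher in the scrambled line. RRM2, the regulated subunit of ribonucleotide reductase, differed by 0.68, POLA2 of DNA polymerase alpha by 0.81, and PCNA, the sliding clamp of the polymerases, by 0.54. PCNA was 399, 371, 379.5 and 378 FPKM in NE and 222 to 325 (median 262) elsewhere. None of these 6 genes, some of them picked as called members of large difference, had an NE library inside the range of the other 8, as was so for 14% of all tested genes in this direction. Of the replication-dependent histone genes, whose mRNAs normally lack a polyA tail, 2 were tested and 1 was lower, with a median of −0.54.

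The promoters of this list often carried an E2F site, printed here for members that were higher in NE to show the element they share. The letters TTTCCCGC, TTTGGCGC and TTTCGCGC were searched on both strands from 250 bases before to 50 after each RefSeq start (GRCh38.p14). They were present in 19 of 32 promoters of the list (59.4%), in 5.13% of 6907 promoters of tested genes and in 2.79% of 27305 RefSeq promoters. Of the tested genes higher in NE 6.70% held them, and of those lower 4.34%. In the windows below, written along the gene's strand, capitals mark the match.
GINS2, chr16:85688966-85688997, minus strand: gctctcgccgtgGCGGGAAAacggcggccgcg
PCNA, chr20:5126662-5126693, minus strand: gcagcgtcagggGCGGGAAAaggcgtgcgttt
POLA2, chr11:65261897-65261928, plus strand: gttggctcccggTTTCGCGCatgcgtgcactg
UHRF1, chr19:4909475-4909500, plus strand: tgccgagttttcGCGGGAAAaaaatc
CDT1, chr16:88803742-88803773, plus strand: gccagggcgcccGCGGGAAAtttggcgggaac
The matches end at positions −52 (PCNA) to −7 (UHRF1) counted from the start. UHRF1, which maintains DNA methylation at the fork, differed by 0.79, and CDT1, which licenses origins, by 0.52. The call of CDT1 ended without the filter (0.52), under upper quartile scaling (0.43) and quantile normalization (0.44), at the same total without mitochondrial genes (0.35), with the length and GC trends removed (0.43), without TR (0.24) and without the NE library of the untreated (0.53) or treated (0.37) scrambled line.

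Mitosis genes were less uniform. Of 42 tested, 25 were higher and 7 lower (median 0.31), and with the length and GC trends taken out 27 were higher and 2 lower (median 0.34). CDC20, an activator of the anaphase-promoting complex, was 109.5, 127, 134 and 161 FPKM in NE and 56.7 to 73.8 (median 69) elsewhere, with no overlap (log2 0.96, adjusted p = 5.64e-05). MYBL2, a transcription factor of late cell cycle genes, differed by 0.87 and the centromere protein CENPM by 0.82. The markers most used for dividing cells were not called: MKI67 was 66.8, 59.2, 42.6 and 47.4 FPKM in NE against 40.9 to 60.6 (median 48.7, log2 difference 0.12, adjusted p = 0.501), and the mitotic kinase CDK1 was 105, 91.4, 78.5 and 115 against 83.6 to 102 (median 88.9, log2 difference 0.09, adjusted p = 0.36). Of the 4 NE values of MKI67 3 lay within the range of the other libraries and 1 above it, and of those of CDK1 2 lay above, 1 within and 1 below it. At the same total without mitochondrial genes both differences were below 0 (MKI67 −0.05, CDK1 −0.08). TOP2A, which untangles chromosomes, was 111, 97.9, 72.9 and 82.7 FPKM against 104 to 116 (median 111) and was called lower (log2 −0.30, adjusted p = 0.0177). That call ended without C (−0.28), with the length and GC trends removed (−0.05), without the NE library of the untreated scrambled line (−0.20) and without that of the treated scrambled line (−0.25). In the promoters of mitosis genes the E2F letters were found in 3 of 35 (8.57%).

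Genes of ribosome and polyamine synthesis were in part higher. Of 28 tested MYC and ribosome biogenesis genes, 14 were higher and 2 lower (median 0.28), and at the same total without mitochondrial genes 5 and 4. ODC1, the first enzyme of polyamine synthesis, was 257, 289, 276 and 333 FPKM in NE and 145 to 187 (median 159) in the others (log2 0.82), with no overlap. Spermidine synthase, SRM, differed by 0.83 and the ribosome biogenesis factor EBNA1BP2 by 0.70. NCL of the same list was not called (log2 −0.008, adjusted p = 0.957). Of 55 cytosolic ribosomal protein genes, 21 were higher and 1 lower (median 0.26), with 11 higher once the length and GC trends were removed and 8 higher and 5 lower at the same total without mitochondrial genes. Their group medians were 0.002, 0.13, 0.39 and 0.58, larger for the scrambled line and with hardly any rise in untreated miR-139 cells. The genes of this list took 15.3%, 16.3%, 16.8% and 18.5% of summed FPKM in NE and 13.8% to 16.1% (median 15.2%) elsewhere. The difference was 1.62 percentage points (exact permutation test within groups, two-sided, p = 0.0617). Among untreated miR-139 libraries the TR share, 16.1%, lay above the NE share, 15.3%, while NE was highest in the other groups.

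TXNIP, an arrestin that binds thioredoxin and restrains glucose uptake, was among the genes that fell furthest. It was 11.3, 15.7, 18.1 and 11.4 FPKM in the NE libraries and 42 to 94.3 (median 68.4) in the others, with no overlap. Its log2 difference was −2.13 (SE 0.20, adjusted p = 3.69e-05). The glucose-responsive factor pair MLX and MondoA is known to act on TXNIP through a paired E-box called the carbohydrate response element, and the TXNIP promoter is shown since it holds that element, which is rare. The element was searched as CACGNG, then 5 bases of any kind, then CACGNG, on both strands. It was present in 11 of 6907 promoters of tested genes (0.159%), among them 5 of 1337 lower in NE (0.374%) and 2 of 1777 higher (0.113%), and in 0.0732% of all RefSeq promoters.
TXNIP, chr1:145996639-145996679, minus strand: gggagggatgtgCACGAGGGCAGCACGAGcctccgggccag
The match spans positions −88 to −72 counted from the start.

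Other genes of growth arrest were mixed. Of 19 tested genes of inhibition and quiescence, TXNIP among them, 6 were lower and 2 higher (median −0.13). YPEL5, which belongs to a ubiquitin ligase complex, was 38.7, 41.7, 37.1 and 35.7 FPKM in NE and 58.98 to 73.4 (median 64.9) elsewhere (log2 −0.75). Its relative YPEL3 differed by −0.82, and PIK3IP1, an inhibitor of PI3-kinase, by −0.74. CDKN1B, the inhibitor p27, was 31.6, 32.1, 30.6 and 29.1 FPKM against 31.7 to 38.97 (median 35.3) and was not called (log2 −0.17, adjusted p = 0.101). Of 18 p53 targets 5 were higher and 4 lower, with a median of −0.01. Under upper quartile scaling 3 were higher and 4 lower, as also with the length and GC trends removed, and at the same total without mitochondrial genes 2 and 6. PMAIP1, the BH3-only protein NOXA, had the largest difference among them: 24, 20.03, 19.1 and 19.8 FPKM in NE against 39.5 to 75.99 (median 48.7, log2 difference −1.29, adjusted p = 7.11e-05). AEN, a nuclease of the same list, differed by 0.66 and MDM2, the ligase of p53, by −0.53, a call that ended with the length and GC trends removed (−0.26).

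Many extracellular matrix genes were lower in NE. Of 38 structural matrix genes 18 were lower and 2 higher, with a median of −0.34 and group medians from −0.38 to −0.23. FN1, fibronectin, had the most negative difference of the named genes. It was 58.1, 90.6, 59.9 and 31.4 FPKM in the NE libraries and 126 to 574 (median 299) in the others. Its log2 difference was −2.34 (SE 0.25, adjusted p = 5.64e-05), and it stood at −1.90 against C and −2.79 against TR. LTBP3, which holds latent TGF-beta in the matrix, was 97.8, 116, 138 and 96.3 FPKM against 158 to 321 (median 247, log2 difference −1.10). Thrombospondin 3, THBS3, differed by −0.98 and spondin 1, SPON1, by −0.95.

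Not every matrix gene set NE apart from both other tags. THBS1, an activator of TGF-beta, was 2.36, 2.06, 2.19 and 1.51 FPKM in NE, and 2.13, 2.75, 2.27 and 1.92 in C but 11.7, 13.01, 10.5 and 11 in TR, so that NE differed by −0.11 from C and by −2.06 from TR. COL1A1, a chain of type I collagen, was 50.99, 50.4, 57.1 and 41.6 FPKM in NE, 47.7, 58.4, 33.2 and 34.7 in C and 89.7, 96.7, 100.4 and 83.7 in TR. The high libraries of both genes were those tagged TR, and the pooled comparison called neither (adjusted p = 0.0846 and 0.386). Summed structural matrix genes took 0.186%, 0.204%, 0.179% and 0.152% of FPKM in NE and 0.227% to 0.378% (median 0.308%) elsewhere, a difference of −0.122 points (exact permutation test, two-sided, p = 0.0123, the smallest that 81 arrangements allow, adjusted over 9 classes 0.0185). Of 12 genes for collagen processing 3 were higher and 1 lower, and at the same total without mitochondrial genes 1 and 2.

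Receptors and remodelling enzymes of the matrix moved with it. Of 10 integrin genes 7 were lower and 1 higher (median −0.44). ITGB1, the common beta chain, was 406, 359, 278 and 325 FPKM in NE and 440.1 to 481 (median 459) elsewhere (log2 −0.44, adjusted p = 0.00143). ITGB3 was 14.5, 13.5, 17.8 and 12.7 against 17.4 to 44.5 (median 31.6, log2 difference −0.99) and its partner ITGAV differed by −0.61. ITGB4, of hemidesmosomes, differed by −0.93 and the collagen receptor chain ITGA11 by −1.69, from −0.92 against C to −2.45 against TR. Of 14 matrix proteases and inhibitors 6 were lower and 1 higher (median −0.27). PLAU, urokinase, was 773, 889, 967 and 811 FPKM in NE and 996 to 2016 (median 1489) in the others (log2 −0.79), and the shedding protease ADAM10 differed by −0.70. SERPINE2, an inhibitor of such proteases, differed by −0.65.

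Of 17 TGF-beta response genes 7 were lower and 1 higher (median −0.19). The ligand TGFB2 was 0.902, 0.484, 0.716 and 0.315 FPKM in NE and 1.71 to 3.37 (median 2.39) elsewhere, with no overlap (log2 −1.08). GREM1, an antagonist of bone morphogenetic proteins, was 49.3, 48.2, 42.2 and 51.2 FPKM against 63.8 to 137 (median 92.98, log2 difference −0.91), and its highest libraries were those tagged C. The inhibitory SMAD7 differed by −0.43. Of 16 YAP-TEAD targets 4 were lower and 1 higher (median −0.21), and against TR alone their median was positive, 0.04. Actin and contractile genes went the other way, with 11 of 22 higher and 3 lower, though with the length and GC trends removed 7 were higher and 4 lower, and at the same total without mitochondrial genes 4 and 4. Of 18 epithelial and mesenchymal markers 3 were higher and 6 lower.

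**Figure D4:**
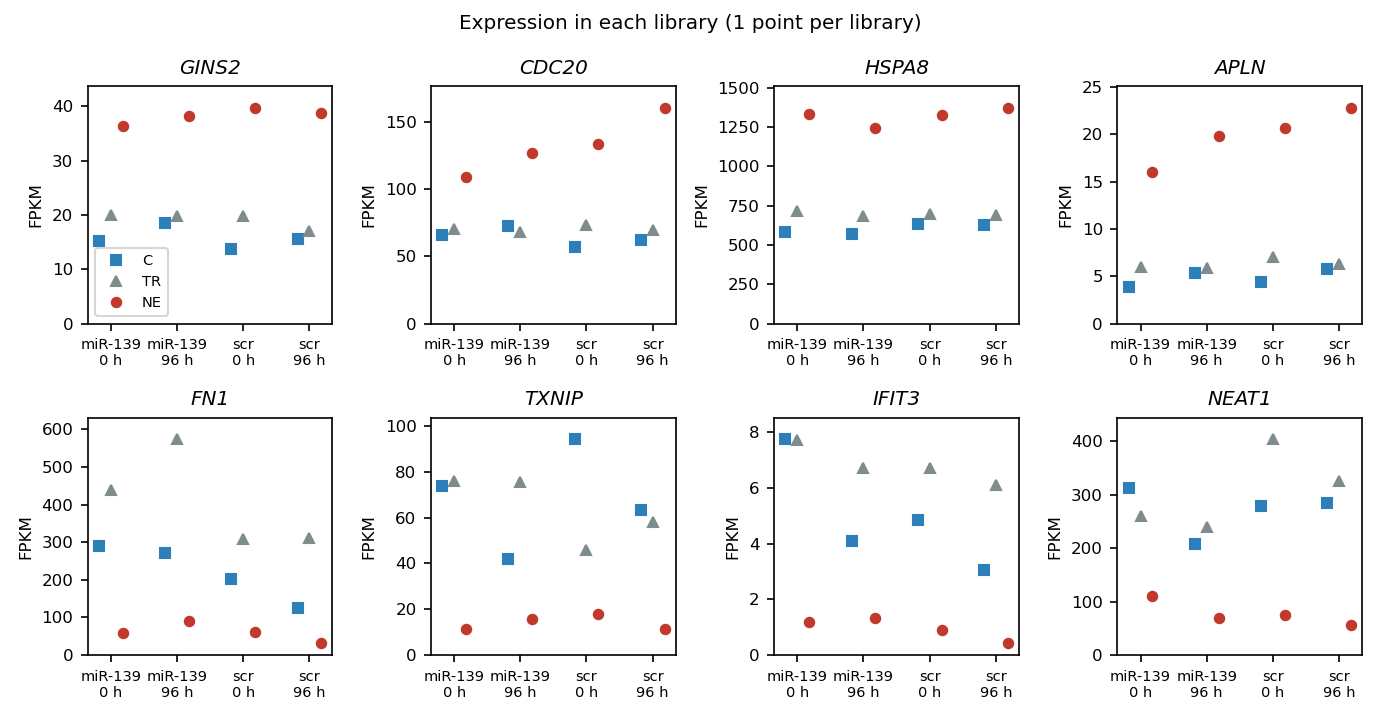
FPKM of 8 genes in each of the 12 libraries, by group on the x axis and with the tag as colour and shape (NE red circles, C blue squares, TR grey triangles); 1 point is 1 library and there are no error bars. The NE point lies above both others in every group for GINS2, CDC20, HSPA8 and APLN and below both for FN1, TXNIP, IFIT3 and NEAT1.

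Stress genes did not move as a block. Cytosolic chaperones were higher: of 22 heat shock and folding genes 16 were higher and 1 lower, with a median of 0.51 and group medians from 0.44 to 0.59. HSPA8, the constitutive HSP70, was 1331, 1242, 1326 and 1373 FPKM in NE and 572 to 713 (median 659) elsewhere. The NE libraries lay at about the same level in all groups and well above the others (log2 1.02, SE 0.09, adjusted p = 2.56e-05). STIP1, which hands clients from HSP70 to HSP90, was 311, 314, 336 and 389 FPKM against 162 to 193 (median 179, log2 difference 0.92). The HSP90 partner FKBP4 differed by 0.94, the inducible co-chaperone DNAJB1 by 0.78 and CHORDC1, another HSP90 partner, by 0.91. HSPH1, of the HSP110 family, was called higher by 0.55, with NE at 0.88 against C and 0.23 against TR. It lost its call without the filter (0.55), under upper quartile scaling (0.45) and quantile normalization (0.42). The call also ended at the same total without mitochondrial genes (0.38) and without C (0.23). It ended too without the NE library of the untreated miR-139 line (0.51), the treated miR-139 line (0.56) or the treated scrambled line (0.55). Summed chaperone genes took 1.39%, 1.27%, 1.18% and 1.26% of FPKM in NE and 0.969% to 1.18% elsewhere (difference 0.237 points, exact permutation p = 0.0123).

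The promoters of 3 of the 19 chaperone genes with a RefSeq window (15.8%) held a heat shock element, searched on both strands as GAA, TTC and GAA in turn with 2 bases of any kind between them, or TTC, GAA and TTC. It was present in 24 of 6907 promoters of tested genes (0.347%) and 0.487% of all, and in 0.394% of genes higher in NE and 0.299% of those lower. All 3 windows are given because the genes were all higher in NE.
HSPA8, chr11:123062342-123062378, minus strand: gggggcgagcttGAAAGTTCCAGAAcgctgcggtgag
CHORDC1, chr11:90223085-90223121, minus strand: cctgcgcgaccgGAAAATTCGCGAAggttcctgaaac
SERPINH1, chr11:75562165-75562201, plus strand: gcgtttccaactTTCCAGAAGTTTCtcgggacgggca
SERPINH1, the collagen chaperone HSP47 of the endoplasmic reticulum, differed by 0.45 and was the single gene of these 3 with an NE library inside the range of the others. It was 79.2, 84.1, 105 and 108 FPKM in NE and 55.2 to 84.6 (median 65.4) elsewhere. Its difference was 0.64 against C and 0.26 against TR. Its call ended under quantile normalization (0.26), at the same total without mitochondrial genes (0.28) and without C (0.26).

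Some genes of the amino acid response were lower in NE, unevenly against the other tags. Of 35 genes of the ATF4 response 10 were lower, 1 higher and 24 not called (median −0.26), 2 were lower against both C and TR, and with the C libraries left out the median was 0.05. SLC38A2, an amino acid transporter, was 126, 106, 95.8 and 90.5 FPKM in NE and 173 to 237 (median 191) elsewhere, lower than both tags (log2 −0.93, adjusted p = 5.47e-05). DDIT3, the factor CHOP, was 24.7, 23.4, 20.9 and 22.4 FPKM in NE, 65.1, 41.7, 90.8 and 70.5 in C and 33.5, 30.5, 23.3 and 27.4 in TR. NE thus stood at −1.46 against C (adjusted p = 3.62e-05) and −0.31 against TR (adjusted p = 0.157). DDIT4, an inhibitor of mTORC1, showed the same form, with −1.75 against C and −0.54 against TR (adjusted p = 4.80e-05 and 0.0529). CHAC1, which degrades glutathione, also stood further from C (−2.05) than from TR (−0.65), but was called against both (adjusted p = 1.93e-05 and 0.0220). Across groups the C and TR ranges overlapped for CHAC1 and DDIT4, but within each group the C library was the highest for all 3 genes. Their pooled calls ended without the filter on low values (DDIT3 also without the variance trend), and that of CHAC1 ended without C (−0.65). All 3 calls also ended on leaving out a single library. For CHAC1 this was NE of the untreated miR-139 line (−1.09). For DDIT4 it was NE of the untreated miR-139 line (−1.01), the untreated scrambled line (−1.20) or the treated scrambled line (−1.13). For DDIT3 it was any of the 4 NE libraries (−0.98 to −0.81). Its call also ended without C of the untreated miR-139 line (−0.79), the treated miR-139 line (−0.86) or the treated scrambled line (−0.75).

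Of 23 endoplasmic reticulum chaperones and related genes 4 were higher and 7 lower (median −0.13). The counts were 2 and 10 under upper quartile scaling, 1 and 11 at the same total without mitochondrial genes, and 3 and 4 with the length and GC trends removed. HSP90B1, the reticulum's HSP90, was 475, 418, 342 and 395 FPKM in NE and 554 to 642 (median 595) elsewhere (log2 −0.56), and HERPUD1, of the degradation machinery, differed by −0.55. SDF2L1, a co-chaperone of the same compartment, was higher by 0.85. Of 26 NRF2 and antioxidant genes 9 were higher and 2 lower (median 0.19). NFE2L2, which codes for NRF2 itself, was 22.2, 18.6, 20.1 and 19.4 FPKM against 32.4 to 41.2 (median 36.4) and differed by −0.84 on the log2 scale (adjusted p = 3.69e-05). Of 22 immediate early genes 7 were higher and 5 lower, a balance that turned to 5 and 7 under upper quartile scaling, 3 and 8 at the same total without mitochondrial genes, and 6 and 8 with the length and GC trends removed. JUN was 53.1, 54.9, 63.6 and 64.5 FPKM in NE and 29.4 to 41.7 (median 33.1) in the others (log2 0.80), while JUNB was 13.02, 16.6, 20.2 and 18.8 against 24.3 to 38.9 (median 35.5, log2 difference −0.92), so members of the same AP-1 family parted. FOSL1, the AP-1 partner that MAPK signalling maintains, differed by 0.66. The list of 14 MAPK output genes had 2 higher and 2 lower (median 0.08), with 1 and 4 at the same total without mitochondrial genes (median −0.09) and 1 and 3 under upper quartile scaling (median −0.01). Of 8 metallothioneins and zinc genes 0 were higher and 1 lower, with 4 lower once the length and GC trends were removed and 5 at the same total without mitochondrial genes.

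Interferon-stimulated genes were largely lower or not called in NE: 17 of 34 were lower and 1 higher, with a median of −0.28 and group medians from −0.52 to −0.20. IFIT2, an inhibitor of the translation of viral RNA, was 0.861, 0.641, 0.792 and 0.644 FPKM in NE and 2.84 to 8.84 (median 6.57) in the others. IFIT3, its binding partner, was 1.17, 1.33, 0.893 and 0.441 FPKM against 3.05 to 7.75 (median 6.41, log2 difference −1.79, SE 0.17, adjusted p = 3.71e-05). All of these are low levels, and the log2(FPKM + 1) scale understates such changes. IFI44 was 1.98, 1.49, 1.71 and 1.17 FPKM against 5.88 to 11.2 (median 8.29, log2 difference −1.81), IFIT2 differed by −2.02 and OASL, a relative of the 2-5A synthetases, by −1.90. Not a single NE library of these 4 genes reached the lowest of the others.

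The interferon response element, searched on both strands as 2 copies of GAAA with 2 bases of any kind between them, was present in 19 of the 25 promoters of the list (76.0%), in 2.49% of 6907 promoters of tested genes and in 3.65% of all RefSeq promoters, and in 3.22% of genes lower in NE and 2.31% of those higher. Not every gene of the list with the element was called. IFIT1 (−0.74) and LGALS3BP (−0.40) were also lower, but BST2 (0.27), OAS3 (0.25), PSMB10 (0.28) and ISG15 (−0.13) were not called. Shown are 2 of the genes with the largest differences.
IFIT3, chr10:89327829-89327862, plus strand: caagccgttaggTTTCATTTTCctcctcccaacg
IFI44, chr1:78649759-78649788, plus strand: gggcacactgagTTTCAGTTTCctttctct
The match of IFIT3 begins at position −156 and that of IFI44 at −18, counted from the start. Among 17 NF-kB targets and cytokines 7 were lower and 2 higher (median −0.26). ICAM1, the adhesion receptor for leukocytes, was 5.87, 6.36, 7.22 and 6.07 FPKM in NE and 14.5 to 21.03 (median 15.9) elsewhere (log2 −1.26, adjusted p = 3.36e-05). RELB, a subunit of NF-kB, differed by −0.65.

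Many glycolysis genes were higher and some hypoxia genes lower in NE. Of 21 glycolysis genes 12 were higher and 0 lower (median 0.35), with 6 higher and 2 lower at the same total without mitochondrial genes. PGAM1, phosphoglycerate mutase, was 447, 449, 551 and 615 FPKM in NE and 265 to 373 (median 308) elsewhere (log2 0.69), and PGK1, which yields ATP, differed by 0.56. LDHA, which makes lactate, was called higher by 0.52, a call lost without the filter (0.52), at the same total without mitochondrial genes (0.35), without C (0.29) and without the NE library of the treated scrambled line (0.48). Of 19 hypoxia response genes 7 were lower and 1 higher (median −0.17). KDM3A, a histone demethylase induced by HIF, was 28.6, 23.1, 21.6 and 19.9 FPKM in NE and 33.8 to 40.2 (median 35.9) in the others (log2 −0.62). The glucose transporter SLC2A3 differed by −0.75 and the MYC antagonist MXI1 by −0.70.

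Most proteasome and cholesterol genes were higher in NE. Of 32 proteasome genes 22 were higher and 0 lower (median 0.43). PSME3, an activator cap, was 147, 155, 159.5 and 179 FPKM against 95.7 to 111 (median 104, log2 difference 0.62), and the base subunit PSMC3 differed by 0.65. Of 16 cholesterol genes 10 were higher and 2 lower (median 0.36), and at the same total without mitochondrial genes 6 and 3. EBP, a sterol isomerase, was 105, 121, 128 and 154 FPKM in NE and 62.6 to 91.5 (median 78.1) elsewhere (log2 0.69), and NSDHL and MVK of the same pathway differed by 0.57 and 0.61. Of 15 fatty acid genes 5 were higher and 4 lower, which turned to 3 and 5 under upper quartile scaling and 1 and 5 at the same total without mitochondrial genes. Of 38 lysosome and autophagy genes 5 were higher and 12 lower (median −0.07), with 0 and 19 at the same total without mitochondrial genes. GABARAPL1, of autophagosomes, was 24.3, 30.8, 26.4 and 28.2 FPKM in NE and 41.4 to 55.7 (median 46.99) in the others (log2 −0.79), and the protease CTSK and the sulfatase SGSH differed by −0.69 and −0.67.

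Mitochondrial RNA showed the sharpest split. The mRNAs of the mitochondrial genome took 8.57%, 6.89%, 7.69% and 5.45% of summed FPKM in NE and 10.7% to 12.3% (median 11.7%) in the other libraries, a difference of −4.52 percentage points (exact permutation test within groups, two-sided, p = 0.0123, adjusted 0.0185). Of the 13 protein genes 12 were lower and 0 higher (median −0.67). MT-ND1, a subunit of complex I, was 3792, 2829.9, 3642 and 2499.8 FPKM in NE and 5237 to 5940.4 (median 5422) elsewhere (log2 −0.79, adjusted p = 2.52e-04). MT-CYB of complex III was 3033, 2533, 2920.2 and 2108 FPKM against 4000 to 4954 (median 4484, log2 difference −0.77), and MT-ND2 and MT-ND4 differed by −0.81 and −0.78. In each line the lower value of MT-ND1 and MT-CYB was that of the doxycycline-treated NE library, and each of these values is a single library. The ribosomal RNAs of the same genome moved less: MT-RNR2 was 2734, 3145, 3084 and 3482 FPKM against 2916 to 4226 (median 3735, log2 difference −0.21, adjusted p = 0.2) and MT-RNR1 709.9, 742, 822 and 745 against 594 to 944 (median 718, log2 difference 0.08, adjusted p = 0.638, turning to −0.02 under upper quartile scaling and −0.09 at the same total without mitochondrial genes). Their joint share was 0.612% to 0.667% in NE and 0.631% to 0.864% elsewhere, with overlap (exact permutation p = 0.0494, adjusted over 9 classes 0.0635).

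**Figure D5:**
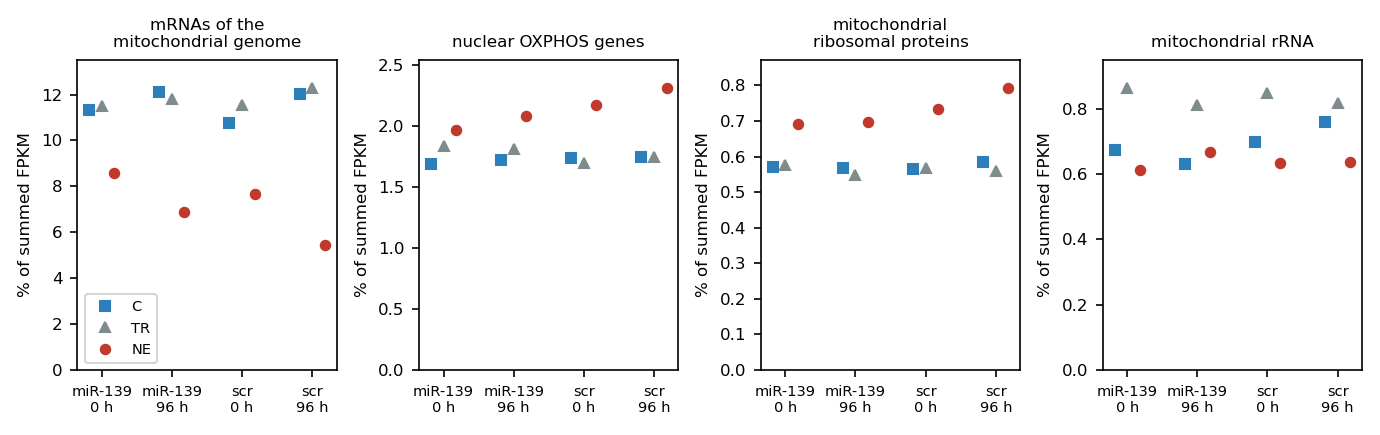
Percentage of summed FPKM taken by 4 classes of genes in each library, by group on the x axis, with NE as red circles, C as blue squares and TR as grey triangles; 1 point is 1 library. The mRNAs of the mitochondrial genome stand at 5.45% to 8.57% in NE and 10.7% to 12.3% elsewhere, while nuclear OXPHOS and mitochondrial ribosomal protein genes are higher in every NE library.

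The nuclear genes of the same complexes went the opposite way. Of 57 nuclear oxidative phosphorylation genes 39 were higher and 0 lower (median 0.38). Their group medians were 0.15, 0.23, 0.53 and 0.64, larger for the scrambled line. Their share of summed FPKM was 1.97%, 2.08%, 2.17% and 2.31% in NE against 1.69% to 1.84% elsewhere (difference 0.384 points, exact permutation p = 0.0123). ATP5G1, a copy of the rotor subunit of ATP synthase, was 131, 151, 156 and 189 FPKM in NE and 75.5 to 121 (median 89.3) in the others (log2 0.73). NDUFAB1, the acyl carrier protein, differed by 0.61 and COX8A of complex IV by 0.60. Both classes are parts of the same enzymes, yet their shares parted in all 4 groups. Since FPKM is relative to the mapped fragments of a library, a smaller share of mitochondrial mRNAs can lift other genes. At the same total without mitochondrial genes, which also evens out summed FPKM, 28 of the 57 were still higher and 0 lower.

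Genes that build the mitochondrial ribosome and the import machinery rose with the nuclear respiratory genes. Of 52 mitochondrial ribosomal protein genes 37 were higher and 0 lower (median 0.48). Their group medians were 0.23, 0.34, 0.56 and 0.70, larger for the scrambled line. MRPL17 was 92.5, 112, 125 and 159.6 FPKM in NE and 57.8 to 69.2 (median 62.2) elsewhere (log2 0.94, adjusted p = 5.64e-05), and its NE level was highest in the treated scrambled line. MRPL27 and MRPL12, proteins of the large subunit, differed by 0.78 and 0.76. Of 32 import and proteostasis genes 22 were higher and 3 lower (median 0.42), with group medians of 0.22, 0.31, 0.48 and 0.67. TIMM10, a chaperone between the membranes, was 125, 139, 159.6 and 175 FPKM against 68.9 to 88.5 (median 79.8, log2 difference 0.91), its kin TIMM8B differed by 0.98 and the channel TOMM40 by 0.79. TOMM20, the receptor beside that channel, was lower: 72.3, 66.7, 59.04 and 56.6 FPKM in NE and 75.6 to 109 (median 94.1) elsewhere (log2 −0.54).

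Regulators of the mitochondrial genome had no common direction, with 8 of 28 higher and 6 lower (median 0.07, and −0.03 to −0.01 under upper quartile scaling and quantile normalization). POLRMT, the mitochondrial RNA polymerase, was 29.9, 36.03, 40.01 and 47.05 FPKM in NE and 21.6 to 28.02 (median 24.96) elsewhere (log2 0.60), and the elongation factor TSFM differed by 0.64. LRPPRC, which stabilises mitochondrial mRNAs, was lower: 67.8, 51.7, 44.3 and 49.1 FPKM in NE against 67.8 to 91.9 (median 75.6, log2 difference −0.56, adjusted p = 0.00256). Whether its level bears on the mRNAs of the mitochondrial genome was not tested. Of 17 genes of the tricarboxylic acid cycle 8 were higher and 0 lower (median 0.17), and at the same total without mitochondrial genes 1 was higher.

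Most long noncoding RNAs of the nuclear list were lower in NE. Of 7 tested 4 were lower and 1 higher (median −0.56). NEAT1, the scaffold of paraspeckles, was 109, 68.4, 74.5 and 56.3 FPKM in NE and 208 to 404 (median 282) in the others, with no overlap (log2 −1.91, SE 0.15, adjusted p = 1.33e-05). MALAT1, of nuclear speckles, was 147, 133, 135 and 91.9 FPKM against 209 to 403 (median 219, log2 difference −1.03), and its highest libraries were those of TR. TUG1 differed by −0.74 and LINC00657, known as NORAD and present in the cytoplasm too, by −0.56. Summed, the list took 0.0501% to 0.0938% of FPKM in NE and 0.131% to 0.180% elsewhere (difference −0.08 points, exact permutation p = 0.0123). RN7SL1, the RNA of the signal recognition particle, which lacks a polyA tail, was 224, 103, 279 and 117 FPKM in NE and 359.6 to 1499 (median 469) elsewhere (log2 −1.66). Reads of RN7SL1 cannot be told apart from those of its many copies. The small noncoding RNA genes together took 0.0542% to 0.163% in NE and 0.161% to 0.887% elsewhere (exact permutation p = 0.198), and the untreated scrambled C library, at 0.887%, stood apart. Of the 4 small noncoding RNA genes tested 3 were lower (median −1.24). Of 10 snoRNA host RNAs 1 was higher and 0 lower, and at the same total without mitochondrial genes 1 and 3.

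Outside the lists, the genes with the largest differences were of mixed kinds. BCYRN1, the neuronal small RNA BC200 found in many tumours, was 50.5, 50.5, 56.8 and 66.99 FPKM in NE and 15.5 to 17.7 (median 15.9) in the others (log2 1.71, adjusted p = 4.50e-07); it derives from an Alu repeat, so reads of other Alu copies may be counted with it. APLN, the vascular peptide apelin, was 15.97, 19.8, 20.7 and 22.8 FPKM against 3.85 to 6.98 (median 5.78, log2 difference 1.68). Neither had an NE library near the range of the others. DCTPP1, which clears modified nucleotides, differed by 1.13, the membrane semaphorin SEMA7A by 1.05, HAUS7 of the spindle-building augmin complex by 1.03 and the tubulin TUBB3 by 1.00.

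At the lower end AMIGO2, an adhesion protein, was 49.2, 44.6, 46.8 and 32.7 FPKM in NE and 100 to 134 (median 116) elsewhere (log2 −1.41, SE 0.08, adjusted p = 5.32e-07). BHLHE41, a repressor of the clock, was 2.53, 3.001, 2.46 and 1.22 FPKM against 5.79 to 10.9 (median 7.66, log2 difference −1.45), and UACA, a regulator of apoptosis, differed by −1.33. RARRES3 was 0.720, 1.99, 2.02 and 1.95 FPKM in NE, 4.27, 3.43, 5.57 and 3.96 in C and 15.9, 17.8, 7.82 and 10.1 in TR (log2 −1.68), and GPRC5C differed by −1.46. Both are known as genes that retinoic acid can induce. Every NE library was below the others for AMIGO2, BHLHE41 and UACA.

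HNRNPF and EIF4G2 are given because the study's miRNA work bears on them. HNRNPF was 238, 113, 246 and 265 FPKM in the NE libraries, and within groups NE was higher by 0.37 (adjusted p = 9.18e-04), above both others in 4 of 4 groups. With the group block left out, the spread between groups entered the error and the same difference had an adjusted p of 0.237. Under quantile normalization the difference was 0.16 (adjusted p = 0.0665). EIF4G2 was 451, 238, 355 and 347 FPKM in NE and differed by −0.18 (adjusted p = 0.0759), and by 0.06 with the length and GC trends removed.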

How the data were processed

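Gene-level FPKM of 12 polyA RNA libraries was used as deposited by the authors. Per the labels' protocols, RNA was extracted with Trizol and libraries were made with NEBNext Ultra II Directional, which marks strand. Among the tools listed in the submitters' processing notes are the aligners STAR 2.5, TopHat2 2.0.10 and Bowtie 1.0.0, the quantifiers Cufflinks and HTSeq, and FastQC 0.11.0, for the builds GRCh37 and hg19. Which of them made the table, and whether strand was used, is not given in the sources used here. Chromosomes 3 to 9 were not analysed here. Columns carry group and tag, so each library was assigned to its group, and 0 columns were left unmapped.

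Values were tested as log2(FPKM + 1) with limma 3.58.1 in R 4.3.3 (variance trend, two-sided, Benjamini-Hochberg threshold 0.05) on the 9778 genes with a mean of at least 1 FPKM, with the 4 groups as a block and NE against C and TR. Group and tag were read from the column names. As a description, within-group NE differences correlated at r of at least 0.54 between all groups. Shares of summed FPKM were tested by an exact permutation test that picks 1 of 3 libraries in each group (81 arrangements, smallest p 0.0123), adjusted over 9 classes. The fit was tested on simulated data. Transcript length and GC came from GENCODE 29, matched for 8621 tested genes (88.2%), and promoters from RefSeq (GRCh38.p14), matched for 6907.

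Genes and the 46 lists were chosen with earlier results of these data known. Named were the 12 called genes with the largest difference in each direction among those with a mean of at least 5 FPKM and the same order in all 4 groups, the anchors of each list with up to 4 called members of largest difference, and MALAT1, NEAT1, HNRNPF and EIF4G2; of these, the text prints a part. E2F-site genes UHRF1 and CDT1 and the 4 genes called only without the filter were named for their windows or their count. For genes and lists, alternatives were another pseudocount, filter, scaling, variance model or block, each library left out, and C or TR left out. Added after seeing the data were the lines apart and the length and GC trend removed. For shares, alternatives were the sum without the mitochondrial genome and each group, C or TR left out.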

Additional observations from a re-analysis of the deposited data

How the results depend on the processing

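Of the counts of called genes, most stayed within 1.5 times under the settings tried. With the replicate block removed (the group term left out), limma called 2389 genes higher and 1991 lower in NE, so the block changed no count by over 1.5 times. At the same total without mitochondrial genes 1124 were higher and 2826 lower. The miR-139 line alone gave 378 higher and 338 lower, and the scrambled line alone 2210 and 1685. Both fits have the same number of libraries, fewer than the main fit. The cause of this gap was not tested. Leaving out each library in turn gave 1447 to 2415 higher, 1187 to 2009 lower, 3783 to 5195 between NE and C, 3437 to 4984 between NE and TR, and 0 for both differences of differences, which were 1 (line) and 3 (doxycycline) without the filter.

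The NE difference in the share of mitochondrial rRNA, −0.126 points, did not pass over 9 classes (exact permutation p = 0.0494, adjusted 0.0635). Without 1 group in turn it was −0.116, −0.150, −0.122 and −0.118 points (exact permutation p = 0.148, 0.0741, 0.148 and 0.111), where 27 arrangements remain. It was −0.199 without C and −0.054 without TR. Structural matrix was −0.12 without the untreated miR-139 group (exact permutation p = 0.0741), −0.160 without C and −0.084 without TR. Unadjusted, cytosolic ribosomal proteins were under 0.05 without the untreated miR-139 group (2.12 points, exact permutation p = 0.0370), as did small noncoding RNA genes without the untreated scrambled group (−0.125 points, exact permutation p = 0.0370).

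Of the 109 called genes printed here, 29 were not called in the miR-139 line alone and 10 in the scrambled line alone, with fewer libraries, and at most 6 under any other setting.

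Some values changed sign. Not all of them were near 0 in the main fit, where the ATF4 median was −0.26, the YAP-TEAD median −0.21 and COL1A1 −0.33. Under upper quartile scaling CDK1 was −0.0088, MT-RNR1 −0.018 and the median of mitochondrial genome expression −0.025; under quantile normalization −0.11, −0.17 and −0.012; at the same total without mitochondrial genes −0.081, −0.091 and −0.093, with MKI67 at −0.052 and the tricarboxylic acid cycle at −4.88e-04. Without C, MT-RNR1 was −0.13, PAX8 −0.019, the YAP-TEAD median 0.045 and the ATF4 median 0.046. Without TR, COL1A1 was 0.23 and mitochondrial genome expression −0.023. With the length and GC trends removed EIF4G2 was 0.058 and MT-RNR1 −0.018. MKI67 was −0.13 in the scrambled line alone and −0.0085 without the NE library of the untreated miR-139 line. The cause of these changes was not tested.

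The tag has no stated meaning, and the 4 NE libraries share it. FPKM holds no absolute depth, so no interval from counts is given. Levels are relative, so a smaller mitochondrial share can lift other genes, and summed FPKM differed between libraries. Length and GC moved with the NE difference.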
